A study of Drosophila melanogaster with 12 samples.

Results

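The nuclear genes of the mitochondrial respiratory chain and of ATP synthase were examined in chromatin immunoprecipitation sequencing (ChIP-seq) of the protein Egg (Eggless) in OSCs, a line of ovarian somatic cells of Drosophila melanogaster grown in culture. Members were all transcript rows whose gene symbol begins with ND- (complex I), UQCR- (complex III), COX and a digit (complex IV) or ATPsyn (complex V). They came to 80 genes of 16774 in the table, in 187 rows. Of these, 59 are the usual subunits, called canonical here, and 21 are paralogues, named for a canonical gene with L or L and a digit added. Reads were summed over the rows of a gene.

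Complexes I, III and IV pass electrons from NADH and ubiquinol to oxygen in the inner mitochondrial membrane and pump protons, and ATP synthase, complex V, uses the proton gradient to make ATP. Most subunits are encoded in the nucleus by single-copy genes that are transcribed in nearly all cells, while many of the fly paralogues are known for expression in the testis. Egg is the fly SETDB1, a methyltransferase that places methyl groups on lysine 9 of histone H3 and is best known for silenced chromatin. The libraries hold genomic DNA, so their values describe where DNA was recovered with Egg and say nothing of RNA levels.

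The groups used were Egg ChIP and input DNA of OSCs under knockdown of Egg (siEgg), and Egg ChIP and input DNA of OSCs under knockdown of EGFP (siEGFP), the control target. All were crosslinked with 1% formaldehyde after 4 days of knockdown. The labels list 12 samples in 8 groups and 2 samples in each of these 4 groups, but the table held 1 column per group with no replicate number, so a column may be 1 sample or a pool of both. The siPiwi and siWde samples were not analysed here.

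The depths recovered from the table were 1698148 reads in the siEgg ChIP, 2293964 in the siEgg input, 1796866 in the siEGFP ChIP and 2183061 in the siEGFP input. Reads of a row were recovered as the smallest whole numbers that fit its values, so some may be too low. With 1 column per group there was no spread between replicates and no test, and each value stands with a 95% counting interval, which covers counting error only. Enrichment is log2 of ChIP over input, each in RPKM (reads divided by the length of the row and by the library's total) with 0.6 added, and the change is enrichment in siEgg minus enrichment in siEGFP. A gene was called when its log2 value was at least 1 in size and its interval excluded 0. Genes were eligible for calls with 10 or more reads in 2 or more libraries and an RPKM above the added value in 2 or more. These were 12557 in all and 52 of the 80 members. Because a gene can reach 10 reads through its ChIP reads, sums over all members, eligible or not, are given first.

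The canonical genes were recovered with Egg in siEGFP cells, and less so after knockdown of Egg. Summed over all 59 canonical genes, the siEgg libraries held 661 ChIP reads and 746 input reads, and the siEGFP libraries held 1356 ChIP reads and 787 input reads. Scaled to depth, ChIP over input was 1.20-fold in siEgg (interval 1.08 to 1.33) and 2.09-fold in siEGFP (1.92 to 2.29). The change was -0.81 on the log2 scale (-1.0 to -0.61). All genes outside the members, summed in the same way, stood at -0.03 in siEgg and -0.16 in siEGFP on the log2 scale, with a change of 0.13. The canonical sum exceeded that of all other genes by 0.29 in siEgg (0.14 to 0.44) and by 1.23 in siEGFP (1.10 to 1.35). The inputs of the canonical genes differed little, by -0.15 for siEgg minus siEGFP (-0.30 to -0.0023), and the ChIPs compared without inputs differed by -0.96 (-1.09 to -0.82).

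Summed together, the paralogues stood near input in both knockdowns, though those of complex IV lay higher in siEGFP than the rest. The 21 genes held 184 ChIP reads and 279 input reads in siEgg, and 211 ChIP reads and 270 input reads in siEGFP. Enrichment was -0.17 in siEgg (-0.44 to 0.11) and -0.07 in siEGFP (-0.34 to 0.19), both with 0 inside the interval. In siEGFP the canonical sum lay 1.14 above the paralogue sum on the log2 scale (0.85 to 1.43), or 2.21-fold. The changes differed by -0.71, canonical minus paralogue (-1.14 to -0.29). The 13 paralogues of complexes I, III and V summed to -0.22 in siEgg (-0.56 to 0.11) and -0.52 in siEGFP (-0.88 to -0.16), and the 8 of complex IV to -0.04 in siEgg (-0.55 to 0.46) and 0.55 in siEGFP (0.13 to 0.97).

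**Figure D1:**
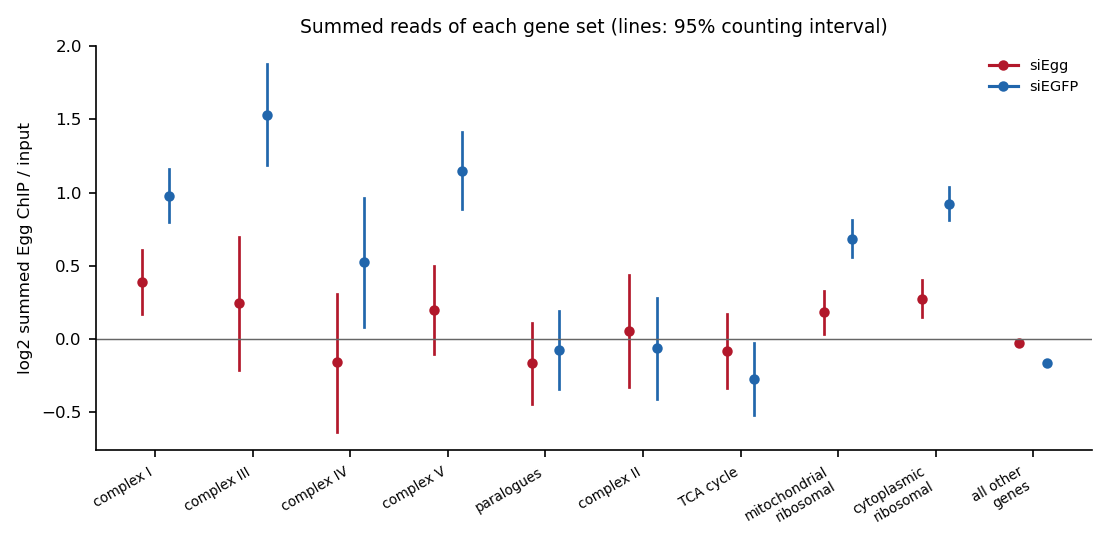
Log2 of summed Egg ChIP over input reads, scaled to depth, for each gene set (x axis), in siEgg (red, left) and siEGFP (blue, right); lines are 95% counting intervals. In siEGFP complexes I, III and V lie near or above 1 and the paralogues, complex II and the tricarboxylic acid (TCA) cycle genes lie near or below 0, while in siEgg the largest set value is 0.39.

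Among the 52 eligible members, 4 were enriched and 1 depleted in siEgg, where 1.31% and 1.17% of all eligible genes were called. In siEGFP, 18 were enriched and 2 depleted, where 5.69% and 7.68% of all eligible genes were called. The change was lower for 10 members and higher for 0, against 3.39% and 5.12% of all eligible genes. No p-value stands behind these counts, and the siEgg call of ND-51L2 rests on a row whose reads may be too low. When eligibility rested on input reads alone (at least 10 in both inputs together, an alternative added after seeing the data), 71 members were eligible, 20 were enriched in siEGFP and 10 were lower. Of all 14926 genes eligible in that way, 800 were enriched in siEGFP and 463 were lower.

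Leaving calls aside, 58 of the 59 canonical genes had a read in all 4 libraries. Enrichment was above 0 for 58.6% of them in siEgg and for 77.6% in siEGFP, and the change was below 0 for 70.7%. For genes outside the members the shares above 0 were 47.6% in siEgg and 34.2% in siEGFP, and 38.2% had a change below 0. For the 20 paralogues with reads in every library, 35% were above 0 in siEgg and 45% in siEGFP, and 60% had a change below 0. The 17 canonical genes that were not eligible for calls held 92 ChIP and 92 input reads in siEgg and 158 ChIP and 100 input reads in siEGFP. Their summed enrichment of 0.94 in siEGFP (0.57 to 1.32) lay near the 1.07 of all canonical genes.

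**Figure D2:**
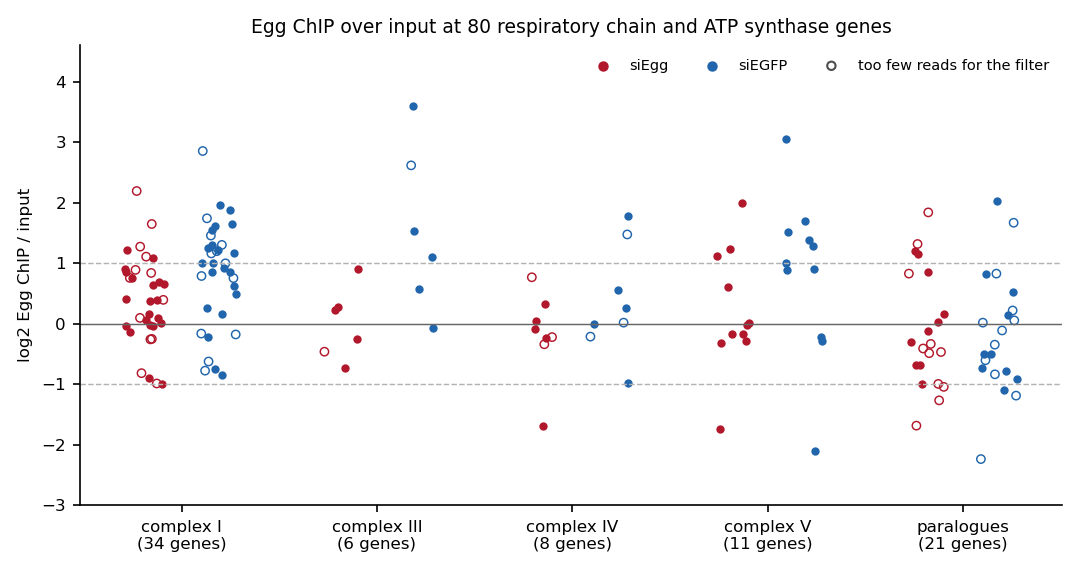
Log2 Egg ChIP over input of each of the 80 genes (points) by complex, in siEgg (red, left) and siEGFP (blue, right); open points had too few reads to be eligible for calls, dashed lines mark the call threshold of 1, and ND-B8 in siEgg and COX7CL in siEGFP rest on a library with 0 reads. Most canonical genes lie above 0 in siEGFP and closer to 0 in siEgg, and the paralogues scatter around 0 in both.

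Complex I, the NADH dehydrogenase, is the largest of the complexes with 34 canonical genes here. Its summed enrichment was 0.39 in siEgg (0.17 to 0.61) and 0.98 in siEGFP (0.80 to 1.16), with a change of -0.59 (-0.87 to -0.31). Of its 21 eligible genes, 9 were enriched in siEGFP, 0 were depleted and 3 were lower in siEgg. ND-13A had the highest enrichment among them. It had 7 ChIP and 7 input reads in siEgg, and 41 ChIP and 12 input reads in siEGFP, an enrichment of 0.38 in siEgg (-1.31 to 2.17) and 1.96 in siEGFP (1.10 to 3.12). Its ChIP count stood out in siEGFP alone, but its change of -1.58 had an interval that reached 0.14.

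The lower genes of complex I were ND-B16.6, ND-24 and ND-39. ND-B16.6, whose mammalian counterpart is an accessory subunit also known as GRIM-19, had 8 ChIP and 11 input reads in siEgg and 36 ChIP and 11 input reads in siEGFP. Its change was -1.90 (-3.50 to -0.30). The inputs were equal in number and the ChIPs were not. ND-24, a core subunit of the NADH-oxidising arm, had 13 ChIP and 18 input reads in siEgg and 34 ChIP and 16 input reads in siEGFP, and a change of -1.33 (-2.65 to -0.01). ND-39, an accessory subunit, had 7 ChIP and 21 input reads in siEgg and 31 ChIP and 20 input reads in siEGFP. Its change was -1.84 (-3.28 to -0.40), although at 0.85 its siEGFP enrichment was under the threshold.

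The other enriched complex I genes were the accessory subunits ND-AGGG (1.65), ND-B18 (1.61), ND-B14.5B (1.55), ND-B17 (1.25) and ND-15 (1.22) and the core subunit ND-49 (1.16), all given as siEGFP enrichment. Their siEgg enrichment lay between 0.15, for ND-B17, and 1.22, for ND-15. ND-15 was called in both knockdowns. It had 15 ChIP and 8 input reads in siEgg and 30 ChIP and 15 input reads in siEGFP, so its ratio was as high after Egg knockdown as in the control, with a change of 0.00 (-1.49 to 1.50). Core and accessory subunits alike did not all follow. ND-23, a core iron-sulfur subunit, was the lowest eligible gene of the complex. It had 4 ChIP and 11 input reads in siEgg and 6 ChIP and 14 input reads in siEGFP (siEGFP enrichment -0.85, -2.61 to 0.53). The accessory subunit ND-42 stood at -0.75 in siEGFP (-1.90 to 0.17), and the core subunit ND-51, which binds NADH, at -0.22 (-1.26 to 0.74).

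Complex III, the ubiquinol-cytochrome c reductase, had the highest sum in siEGFP, with a lead over complex V that was not clear of counting error. Its 6 canonical genes stood at 0.25 in siEgg (-0.21 to 0.70) and 1.53 in siEGFP (1.19 to 1.88), with a change of -1.28 (-1.83 to -0.73). In siEGFP this was 0.55 above complex I (0.17 to 0.93) and 0.38 above complex V (-0.04 to 0.80). UQCR-Q, a small subunit at 3L:17474761-17476124 (dm6), was the most enriched of all 80 genes. It had 20 ChIP and 14 input reads in siEgg, and 79 ChIP and 7 input reads in siEGFP. Enrichment was 0.90 in siEgg (-0.11 to 2.05) and 3.60 in siEGFP (2.67 to 5.14), and the change was -2.70 (-4.16 to -1.25). ChIP reads exceeded input reads in both knockdowns, by far more in siEGFP. Without UQCR-Q the other 5 genes of the complex still stood at 0.07 in siEgg (-0.45 to 0.58) and 1.06 in siEGFP (0.68 to 1.44), below the 1.15 of complex V in siEGFP.

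UQCR-11, whose mammalian counterpart is the hinge protein that helps cytochrome c dock, lies near the centromere at 3L:25120709-25126171. It had 26 ChIP and 30 input reads in siEgg and 57 ChIP and 23 input reads in siEGFP, an enrichment of 1.53 in siEGFP (0.87 to 2.36) and a change of -1.32 (-2.34 to -0.29). The excess was not in its longest row, which held 18 ChIP and 19 input reads in siEgg and 15 ChIP and 15 input reads in siEGFP, and with that row standing for the gene the change turned to 0.074. UQCR-C2, a core protein of the matrix arm, was enriched in siEGFP at 1.10 (0.49 to 1.85), with 20 ChIP and 22 input reads in siEgg and 55 ChIP and 30 input reads in siEGFP. Its partner UQCR-C1 was the lowest of the complex at -0.08 (-0.98 to 0.80), with 9 ChIP and 15 input reads in siEgg and 21 ChIP and 27 input reads in siEGFP. The 2 core proteins thus differed in call, but their intervals overlapped. UQCR-14 fell short of the read minimum, with 2 ChIP and 4 input reads in siEgg and 13 ChIP and 2 input reads in siEGFP.

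Complex IV, cytochrome c oxidase, had the lowest sum of the canonical complexes in both knockdowns. Its 8 genes stood at -0.16 in siEgg (-0.63 to 0.31) and 0.52 in siEGFP (0.08 to 0.97), with a change of -0.68 (-1.30 to -0.06). In siEGFP this was below complex III by -1.01 (-1.55 to -0.47) and below complex V by -0.63 (-1.12 to -0.13), and its difference from complex I, -0.46, had an interval that reached 0.0030. COX7C, a small membrane subunit at 2R:10048353-10050066, was the only enriched gene of the 5 that were eligible. It had 4 ChIP and 20 input reads in siEgg, and 25 ChIP and 8 input reads in siEGFP. Enrichment was -1.69 in siEgg (-3.90 to -0.31) and 1.79 in siEGFP (0.73 to 3.28), and the change of -3.47 (-5.32 to -1.63) was the largest fall among eligible members. Both the ChIP and the input moved, in opposite directions. Most of these reads lay in its longest row, 1 of 4. In siEgg that row held 1 of the 4 ChIP and 14 of the 20 input reads. In siEGFP it held 18 of the 25 ChIP and 3 of the 8 input reads. The other 7 genes of complex IV summed to 0.08 in siEgg (-0.43 to 0.58) and 0.24 in siEGFP (-0.25 to 0.73) with a change of -0.16 (-0.83 to 0.51), so the sum of the complex rested on COX7C. COX6B, which lies between the partners of the oxidase dimer in mammals, was lowest at -0.99 in siEGFP (-2.94 to 0.48), with 8 ChIP and 13 input reads in siEgg and 5 ChIP and 13 input reads in siEGFP.

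Complex V, ATP synthase, had 11 canonical genes, all eligible. They summed to 0.20 in siEgg (-0.10 to 0.50) and 1.15 in siEGFP (0.89 to 1.41), with a change of -0.95 (-1.34 to -0.56). In siEgg 2 genes were enriched, in siEGFP 4 were enriched and 1 was depleted, and 4 were lower. The enriched genes of siEGFP came from the catalytic head, the rotor, the stalk and the membrane part alike. ATPsynE, a small membrane subunit found where synthase dimers meet, at 3R:14326947-14327735, had 20 ChIP and 11 input reads in siEgg and 53 ChIP and 7 input reads in siEGFP. Enrichment was 1.23 in siEgg (0.17 to 2.50) and 3.05 in siEGFP (2.06 to 4.58), with a change of -1.82 (-3.34 to -0.31). It was called enriched in both knockdowns and was lower in siEgg.

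ATPsynbeta, the catalytic subunit, lies on chromosome 4 at 4:1031484-1034917. It had 18 ChIP and 31 input reads in siEgg and 80 ChIP and 28 input reads in siEGFP. Enrichment was -0.32 in siEgg (-1.28 to 0.53) and 1.70 in siEGFP (1.16 to 2.47), with a change of -2.02 (-3.05 to -0.99). Of its 80 siEGFP ChIP reads, 70 fell in 1 of its 3 rows, while that row held 9 of its 28 siEGFP input reads. The gene overlaps CG11076, which had 16 ChIP and 28 input reads in siEgg and 90 ChIP and 14 input reads in siEGFP, and how reads of overlapping genes were assigned is not given in the sources used here.

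ATPsyngamma, the rotor shaft, had 21 ChIP and 18 input reads in siEgg and 52 ChIP and 21 input reads in siEGFP, an enrichment of 1.51 (0.83 to 2.39) in siEGFP. ATPsynD, a subunit of the outer stalk, had 11 ChIP and 17 input reads in siEgg and 34 ChIP and 15 input reads in siEGFP, with an enrichment of 1.39 in siEGFP (0.55 to 2.44) and a change of -1.57 (-2.95 to -0.19). In both genes, as in ATPsynbeta, 1 of 3 rows held most siEGFP ChIP reads, 42 of 52 for ATPsyngamma and 29 of 34 for ATPsynD. ATPsynF, a membrane subunit, was lower by the rule with few reads, 2 ChIP and 11 input reads in siEgg and 13 ChIP and 6 input reads in siEGFP (change -3.04, -5.43 to -0.65).

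Of the remaining ATP synthase genes, 2 held calls. ATPsynO, the protein that ties the stalk to the head, was the 1 depleted canonical gene of siEGFP, with 8 ChIP and 11 input reads in siEgg and 2 ChIP and 14 input reads in siEGFP (siEGFP enrichment -2.11, -5.71 to -0.40). This 1 gene of 11 is 9.09%, near the 7.68% of all eligible genes called depleted in siEGFP. ATPsynG, a membrane subunit, was called enriched in siEgg and not in siEGFP, with 17 ChIP and 5 input reads in siEgg and 19 ChIP and 11 input reads in siEGFP. Its enrichment was 2.0 in siEgg (0.70 to 3.99) and 1.01 in siEGFP (-0.08 to 2.29), and the change of 0.99 had 0 inside its interval (-0.75 to 2.73).

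**Figure D3:**
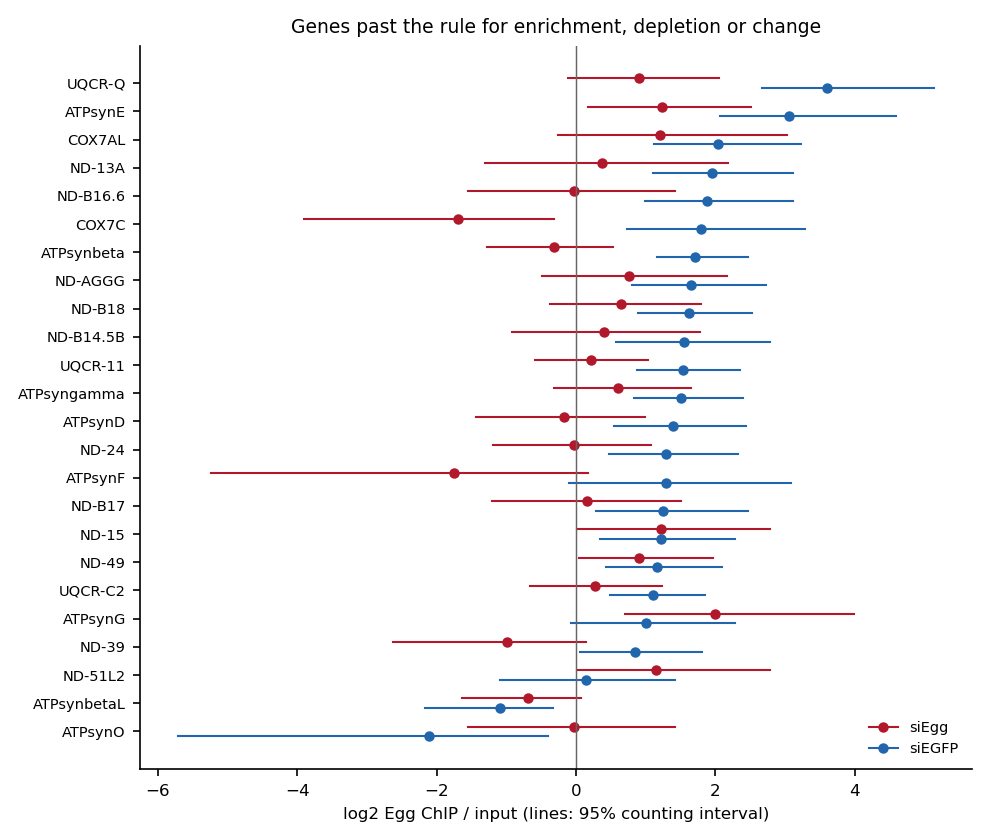
Log2 Egg ChIP over input, with 95% counting intervals, of every gene called enriched, depleted or changed, in siEgg (red, upper) and siEGFP (blue, lower), ordered by siEGFP value. UQCR-Q (3.60) and ATPsynE (3.05) lead in siEGFP, COX7C is the only gene whose intervals lie on opposite sides of 0, and ND-15 has the same ratio in both knockdowns.

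Across the complexes, 8 of the 17 enriched canonical genes (47.1%) were also called lower in siEgg and 16 of the 17 (94.1%) had a negative change. These shares were near those of all 715 enriched genes of the table, 43.5% and 97.2%. The same siEGFP reads enter both values, so genes picked for high siEGFP enrichment tend to a negative change. The sums over all 59 genes pick no gene by its own value and are the values for the change. The member set itself was chosen with earlier results of these data known.

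Of the 21 paralogues, 10 were eligible. COX7AL, a paralogue of the small oxidase subunit COX7A at 3R:8343669-8344310, was the only one enriched in siEGFP. It had 11 ChIP and 6 input reads in siEgg, and 39 ChIP and 11 input reads in siEGFP, an enrichment of 1.20 in siEgg (-0.25 to 3.03) and 2.03 in siEGFP (1.11 to 3.22). COX7A itself, under the read minimum, stood at -0.21 in siEGFP (-1.86 to 1.31). The 8 complex IV paralogues summed to 0.55 in siEGFP (0.13 to 0.97), beside 0.52 for the canonical complex IV genes, and their change was -0.59 (-1.22 to 0.04). As COX7C did among the canonical genes, COX7AL carried this sum: the other 7 stood at -0.23 in siEgg (-0.78 to 0.31) and 0.08 in siEGFP (-0.41 to 0.57). The 6 complex I paralogues summed to -0.55 (-1.02 to -0.08) and lay 1.53 below the canonical complex I genes (1.04 to 2.01). The 4 of complex V summed to -0.62 (-1.32 to 0.06) and the 3 of complex III to -0.11 (-1.27 to 1.02).

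ATPsynbetaL, a paralogue of the catalytic subunit, was depleted in siEGFP. It had 18 ChIP and 41 input reads in siEgg and 15 ChIP and 42 input reads in siEGFP (siEGFP enrichment -1.10, -2.16 to -0.32). ND-51L2 was called enriched in siEgg, with 15 ChIP and 8 input reads in siEgg and 12 ChIP and 13 input reads in siEGFP (siEgg enrichment 1.15, 0.01 to 2.79). A row of ND-51L2, 1 of 2, was recovered at 783 bases, with 5 ChIP and 4 input reads in siEgg and 3 ChIP and 4 input reads in siEGFP. The gene spans 1566 bases, so that row may be 1566 bases long with more reads. The reads, interval and call of ND-51L2 are therefore uncertain. The remaining eligible paralogues were uncalled in every comparison, with siEGFP enrichment of 0.82 for COX4L, 0.53 for COX7AL2, -0.50 for ND-51L1, -0.51 for ND-24L, -0.74 for COX6AL2, -0.79 for ND-49L and -0.91 for ND-B14.5AL. None of the 10 eligible paralogues was called lower or higher.

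Over all 21 pairs of a paralogue and its canonical gene, the paralogue was lower in siEGFP enrichment in 14 and higher in 7, with an interval below 0 in 4 and above 0 in 1. The last was COX7AL, which lay 2.25 above COX7A (0.60 to 3.90). In 6 pairs both the paralogue and its canonical gene were eligible. ATPsynbetaL lay below ATPsynbeta by -2.80 in siEGFP enrichment (-3.84 to -1.76), ND-49L below ND-49 by -1.95 (-3.13 to -0.77) and ND-24L below ND-24 by -1.80 (-3.23 to -0.37). Among these 6 pairs, they are the ones whose canonical gene was enriched. The intervals of the other eligible pairs held 0, at -0.28 for ND-51L1 (-1.50 to 0.95), 0.37 for ND-51L2 (-1.07 to 1.80) and 0.82 for COX4L (-0.46 to 2.09). UQCR-14L lay below UQCR-14 by -2.56 (-5.03 to -0.10), with both genes under the read minimum. The 21 pairs rest on 18 canonical genes. ND-51, COX7A and a complex IV gene outside the naming rule each stand in more than 1 pair. In 17 of the pairs the canonical gene was itself a member.

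Genes of the same pathway that the naming rule leaves out showed little of this. The list held 29 genes of complex II, the remaining complex III to V subunits, cytochrome c, the ADP/ATP translocases, the TCA cycle and regulators of mitochondrial genes. Of these, 24 were eligible. In siEgg none was enriched or depleted, in siEGFP 1 was enriched and 3 were depleted, and 1 was lower and 1 higher. The sum stood at -0.03 in siEgg (-0.18 to 0.13) and -0.19 in siEGFP (-0.34 to -0.04). Complex II, the succinate dehydrogenase shared by the chain and the TCA cycle, summed to 0.06 in siEgg (-0.33 to 0.44) and -0.06 in siEGFP (-0.41 to 0.28). In siEGFP the canonical genes stood 1.13 above complex II (0.77 to 1.49) and 1.34 above the TCA cycle genes (1.07 to 1.61). The sets also differed in length. The median longest row of eligible genes was 1859.5 bases for the list, 1584 for complex II and 1981.5 for the TCA cycle. For the canonical genes it was 930.5 bases. The part of length in these differences was not tested.

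The enriched gene of that list was Cyt-c-d, a cytochrome c that flies use in the testis, with 3 ChIP and 11 input reads in siEgg and 21 ChIP and 8 input reads in siEGFP. Its siEGFP enrichment was 1.55 (0.44 to 3.06) and its change -2.77 (-4.84 to -0.70). The depleted genes of siEGFP were Fum1 (-1.43) and Idh3g (-1.35) of the TCA cycle and blw (-1.20), which encodes the alpha subunit of ATP synthase. For blw there were 25 ChIP and 33 input reads in siEgg and 13 ChIP and 40 input reads in siEGFP, and its change was 1.23 (0.07 to 2.39). The alpha and beta subunits build the same catalytic head, and their genes were called in opposite directions in siEGFP. The complex III gene ox was under the read minimum, with 2 ChIP and 7 input reads in siEgg and 16 ChIP and 3 input reads in siEGFP.

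Ribosomal protein genes, another set of short and widely transcribed genes, gave values near those of the canonical genes. The 85 cytoplasmic ones summed to 0.28 in siEgg (0.15 to 0.40) and 0.92 in siEGFP (0.81 to 1.04), with a change of -0.65 (-0.81 to -0.48). The difference to the canonical genes in siEGFP was 0.14, with 0 inside its interval (-0.03 to 0.31). The 73 mitochondrial ones summed to 0.18 in siEgg (0.04 to 0.33) and 0.69 in siEGFP (0.56 to 0.81), which put the canonical genes 0.38 higher in siEGFP (0.20 to 0.56). Enrichment of this size was therefore not particular to the respiratory chain.

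Row length moved with the share of enriched genes among the eligible genes of the table. In siEGFP, 19.4% of eligible genes with a longest row under 600 bases were enriched, 13% of those from 600 to under 900, 8.52% of those from 900 to under 1500 and 3.12% of longer ones. Of the canonical genes, 0 of 2, 7 of 18, 7 of 12 and 3 of 10 were enriched in the same classes. Of the paralogues, 1 of 1 was enriched in the shortest class, 0 of 4 from 600 to under 900 and 0 of 5 in the longest. In the 3 classes from 600 bases up, the share of canonical genes was thus above that of all genes. Short genes with few input reads can become eligible through their ChIP reads, so the shares of the shorter classes depend in part on that filter. The classes were not repeated with eligibility resting on input reads alone. The part of row length in the result was not otherwise tested.

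**Figure D4:**
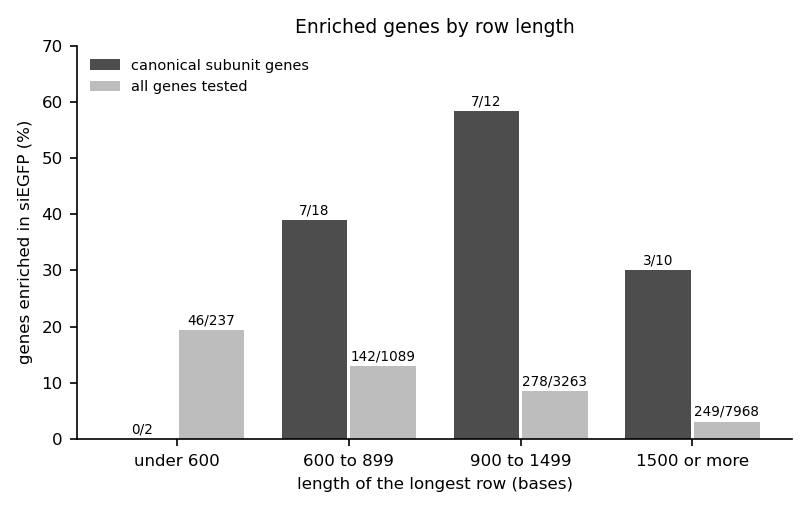
Percentage of eligible genes enriched in siEGFP (y axis) by length of the longest row (x axis), for canonical genes (dark, left) and all genes (light, right), with enriched over eligible genes printed on each bar. All genes fall from 19.4% to 3.12% with length, and canonical genes stand at 38.9%, 58.3% and 30% in the 3 classes from 600 bases up.

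Of the canonical genes, 5 lie on chromosome 4 (ND-49 and ATPsynbeta) or in the last part of arm 3L before the centromere, from 23 Mb on (ND-AGGG, ND-MLRQ and UQCR-11). They summed to 0.30 in siEgg (-0.14 to 0.74) and 1.60 in siEGFP (1.24 to 1.97). The other 54 summed to 0.25 in siEgg (0.09 to 0.42) and 0.98 in siEGFP (0.84 to 1.12), with a change of -0.73 (-0.94 to -0.52). The genes in heterochromatin were higher in siEGFP by 0.62 (0.25 to 1.00).

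Next to the 17 enriched canonical genes, the eligible genes lying within 1000 bases without overlap numbered 18, with a median siEGFP enrichment of -0.13 and 1 enriched gene, CG34250 at UQCR-Q (5.56%, against 5.69% of all eligible genes). The 7 next genes farther away had a median of -0.17 and 1 enriched gene, MED21, 4763 bases from UQCR-11, with 23 ChIP and 10 input reads in siEgg and 102 ChIP and 8 input reads in siEGFP. At 3.78 in siEGFP (2.92 to 5.20) MED21 stood above the 1.53 of UQCR-11. Of the 17 enriched canonical genes, 8 overlapped another gene. The eligible genes overlapping them numbered 17, with a median of -0.12 and 2 enriched genes (11.8%), CG11076 at ATPsynbeta (2.83) and CG3436 at ND-15 (1.50). Most of these overlapping genes lie at ND-15, which spans 41305 bases with a longest row of 869 bases. The median is thus mostly that of 1 locus. COX7C is overlapped by oys, which was depleted in siEGFP (-1.11, -1.98 to -0.59), while COX7C was enriched. Rows stand for transcripts, so sequence upstream of a gene is outside its value.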

How the data were processed

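The deposited table gives, per transcript, values taken to be RPKM (reads divided by the length of the row and by the library's total) from their form: in each library they are whole multiples of 1 step per row. Mapping used Bowtie2 2.2.4 and build dm6, per the submitters' processing notes. The counting step, filters and any pooling are not given in the sources used here. Reads were recovered by scaling, with library depths anchored on genes with 1 row. For each row the smallest length was taken at which the reads of every library were whole within 0.0001 reads. Such a length was found for 34756 of 34762 rows with a value, and 740 rows were 0. Wholeness was the rule of choice, so it does not test the reads. Where the reads of a row share a divisor, its length and reads may be too low by that factor. Sums, intervals, eligibility and length classes can be affected. The recovery and the calls were tested on simulated data. Symbols and positions came from RefSeq (34925 rows by accession), and 6 members were found through their accession under an older symbol. ND-MNLL ends in L but is canonical, as no gene bears the shorter name.

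Before logs, 0.6 RPKM was added to each value, the median gene's input RPKM over 10, rounded. Ratio intervals were exact (Clopper-Pearson), and change intervals were normal with 0.5 added to each count. PCR reads are not independent molecules, so intervals cover counting error only. Sums used no pseudocount and no filter. Genes were named when called, when highest or lowest in their complex, or as eligible paralogues. Others named (UQCR-14, ND-51, ND-42, ox, COX7A, UQCR-14L, CG11076, CG3436, CG34250, MED21, oys, ND-MLRQ) were chosen after their values were seen. The members and lists were chosen with earlier results of these data known. The planned limma fit for replicated columns could not be used. Python 3.11.15, numpy 2.4.6, scipy 1.17.1 and pandas 2.3.3 were used.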

Additional observations from a re-analysis of the deposited data

Results flagged for a closer look

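COX7C had a siEgg interval below 0 (-3.90 to -0.31) and a siEGFP interval above 0 (0.73 to 3.28), with a change of -3.47. It drew attention because its enrichment had opposite signs in the knockdowns. With 1 column per group the difference between the knockdowns was not tested between samples. Its siEgg input held 20 reads against 8 in the siEGFP input, and with the ChIPs compared without inputs the reads were 4 in siEgg and 25 in siEGFP. The longest row of the gene held 14 of the 20 siEgg input reads and 18 of the 25 siEGFP ChIP reads.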

How the results depend on the processing

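The count of members higher in siEgg was 0 under every alternative run, and the median change of eligible members stayed below 0. With a pseudocount 5 times larger, 1 member was depleted in siEGFP, 2 were enriched in siEgg and 5 were lower. Of all 12435 genes eligible there, 282, 82 and 186 were so called. Centring on the median gene, which shifts siEGFP values by 0.29 and turns the calls over all genes from 715 enriched and 965 depleted to 1164 and 320, gave 28 members enriched and 1 depleted in siEGFP, a median of 1.15, and sums of 1.27 for complex I, 1.44 for complex V and 0.22 for paralogues. Quantile scaling gave 7 enriched and 2 depleted members in siEgg, 0 depleted in siEGFP and 6 lower. Over all 12557 eligible genes the same counts were 340, 239, 318 and 374. With pooled inputs, 0 were depleted in siEgg, 20 were lower and the complex I change was -0.87. With the ChIPs compared without inputs 20 were lower. In each of these settings 615 of all 12557 eligible genes were lower, and with pooled inputs 175 were depleted in siEgg. At least 20 reads in each input left 7668 eligible genes, 10 of them members. In siEGFP 3 members were enriched (median 0.31) and 1 depleted, against 202 and 626 of all eligible genes. In siEgg 0 were enriched and 0 depleted, against 12 and 88, and 3 were lower, against 183. The only canonical complex I gene left was ND-39, so the complex I change of -2.06 was that of ND-39 alone, without pseudocount. The paralogues had a change of 0.49 and a siEGFP sum of -0.88. With the row with the most reads standing for its gene, 11086 genes were eligible, 34 of them members. Of these members 11 were enriched in siEGFP (median 0.41), 1 in siEgg and 4 lower, against 695, 186 and 343 of all eligible genes. The median change was -0.13, and the siEGFP sums were 1.17 for complex III and 1.59 for complex V. The change of UQCR-11 turned to 0.074. The cause of these shifts was not tested, apart from the fewer genes left by the stricter filter. Pseudocount, quantile scaling and no filter do not enter the sums. No paired analysis was possible because each group had 1 column without a replicate number, and for the same reason no sample could be left out. Depth limits single genes: most had under 30 reads per library.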
